A study of Mus musculus with 6 samples.

Results

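The genes described are 10 enzymes that remove superoxide, hydrogen peroxide and organic peroxides: the 6 peroxiredoxins Prdx1 to Prdx6, the superoxide dismutases Sod1 and Sod2, the catalase Cat and the glutathione peroxidase Gpx4. They were found by gene name in the deposited count table, 10 of 32285 rows. All 10 passed the filter on low counts that left 15104 genes for testing. They were measured in germline stem (GS) cells, which are cultured mouse spermatogonia with stem cell activity that grow with GDNF and FGF2 on a layer of mouse embryonic fibroblasts. The cells had been established from testes of DBA/2 pups aged 2 to 3 days that carried the act-EGFP transgene of the labels, genotype DBA/Tg14(act-EGFP-OsbY01), in both groups. Frozen tubes were kept for 6 months, those of the 3 libraries titled Space on the International Space Station and those of the 3 titled Ground on Earth. RNA was taken on the day after thawing, without a passage. The study describes 3 lines per group, and no label says which libraries share a line. In each of the 6 libraries the treatment label contradicts the title. Both labels split the libraries alike, but each direction given here follows the titles and would turn around under the treatment label.

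Superoxide is a by-product of respiration and of oxidases. Superoxide dismutases convert it to hydrogen peroxide, which catalase, glutathione peroxidases and peroxiredoxins then reduce. Peroxiredoxins do so with a reactive cysteine that thioredoxin, thioredoxin reductase and NADPH restore, and sulfiredoxin (Srxn1) repairs it when it has been oxidised too far. Ionising radiation and the freezing and thawing of cells are both known sources of such oxidants. The comparison asks whether the expression of these genes differed after storage in space.

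The libraries held 19015985 to 24110916 counts. The 10 enzymes together took 0.185% to 0.215% of the counts of a library. Levels are given as CPM, counts scaled to one common library total after TMM (a trimmed mean of log ratios between libraries), with the SD over 3 libraries. Because the replicates come from cultures whose relation the labels do not give, the p-values measure only the spread between these libraries, which may be in part technical. All 13 spermatogonial markers examined were detected, among them Ddx4 and Dazl, and their summed level was 3000 to 3178 CPM in Ground and 3076 to 3175 CPM in Space. All 20 feeder fibroblast markers were detected too, at a summed level of 1038 to 1084 CPM in Ground and 864 to 1099 CPM in Space. Mitochondrially encoded genes took 3.09% to 11.5% of counts in Ground and 2.51% to 7.12% in Space. In bulk RNA, fewer cells of a type and less RNA per cell cannot be told apart.

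No difference between Space and Ground in any of the enzymes passed the test. None of the 10 had an adjusted p under 0.05 in edgeR's quasi-likelihood test, and the same was true of all genes tested (0 of 15104, 0%). DESeq2 and limma-voom called 0 genes as well. At an unadjusted p under 0.05 there were 0 of the 10 enzymes and 92 of all genes (0.609%), and the p of the enzymes ran from 0.358 to 0.792 (edgeR, 2-sided). The adjusted p was 0.9999 for each of the enzymes. If no gene differed, a calibrated test would put a fraction of about 0.05 of all genes under that unadjusted threshold. The share of 0.609% was far lower, so the test was conservative on these libraries and the intervals given below may be too wide. These p-values therefore do not show that the groups were alike. Whether the likeness between libraries of different groups, described below, caused this was not tested. In none of the 10 did the 3 libraries of a group all lie above the 3 of the other, against 542 of all genes (3.59%). With 1 library left out there was 1 such enzyme without Ground-1 (12.7% of all genes in that fit), 1 without Space-2 (9.30%) and 2 without Ground-2 (8.28%). The log2 fold changes lay between -0.050 for Cat and -0.019 for Sod2. The median was -0.034, where that of all genes tested was -0.0020.

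All 10 estimates were below 0, that is, lower in Space, where 51.3% of all genes were. This shared sign depended on where the scaling set 0 and on single libraries. When counts were scaled to library totals, 3 of 10 were below 0 (33.3% of all genes). The median of all genes was then 0.033, and the enzymes, at -0.016 to 0.015, all stayed below it. The number below 0 was 4 of 10 without Ground-3 and 7 of 10 without Space-3. Ground-3 had the highest level of all 6 libraries in 7 of the 10 enzymes. The median absolute log2 fold change of the 10 was 0.034, below their median standard error of 0.066.

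**Figure D1:**
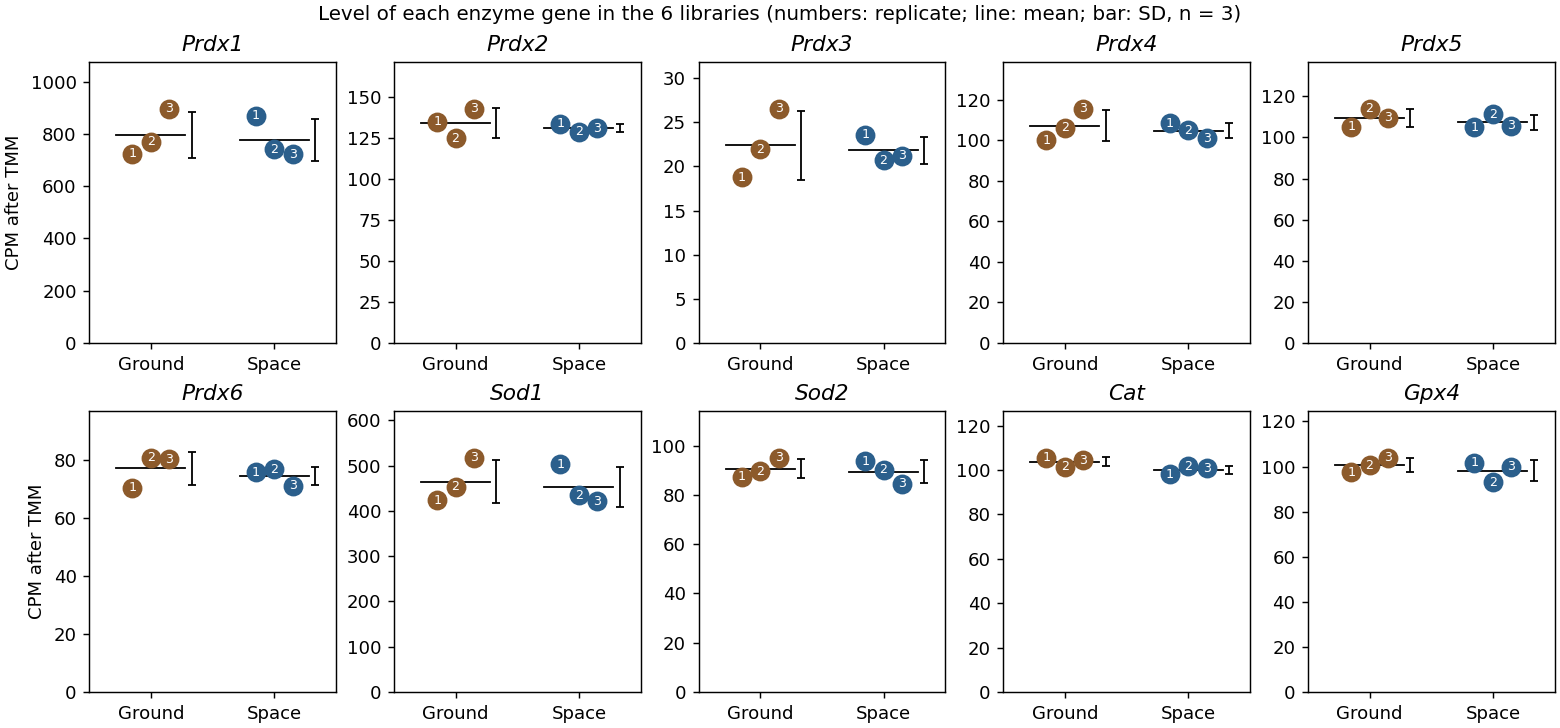
Level of each of the 10 enzyme genes in CPM after TMM scaling (vertical axes from 0) in the 3 Ground and 3 Space libraries. Points are libraries with their replicate number, horizontal lines are group means and bars at the side are SDs; the groups overlap in every panel, and Ground-3 and Space-1 stand highest for Prdx1, Prdx3, Prdx4, Sod1, Sod2 and Gpx4.

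Prdx1 (ENSMUSG00000028691, chromosome 4, 116685544 to 116700822, GRCm38 as for all positions) is a typical 2-Cys peroxiredoxin of cytosol and nucleus. It had the most reads of the 10 enzymes, with 13928 to 21144 counts per library. Its level was 725, 770.1 and 896 CPM in Ground-1, Ground-2 and Ground-3, and 871, 742 and 722 CPM in Space-1, Space-2 and Space-3. Ground-3 and Space-1 were high and the other 4 libraries lay together, so that the spread within each group was larger than the difference between the groups. The means were 797 ± 88.7 CPM in Ground and 778 ± 80.5 CPM in Space (SD, n = 3). The fold change was 0.977 with a 95% interval of 0.829 to 1.15 (edgeR adjusted p = 0.9999). Prdx1 took 62.8% to 65.4% of all peroxiredoxin counts in Ground libraries and 62.6% to 66.1% in Space libraries.

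Sod1 (ENSMUSG00000022982, chromosome 16, 90220754 to 90226329), the copper and zinc superoxide dismutase of the cytosol, followed the same order of libraries. Its level was 424, 453 and 517 CPM in the Ground libraries 1 to 3 and 503, 435 and 421 CPM in the Space libraries 1 to 3. As for Prdx1, Ground-3 was highest, Space-1 next and Space-3 lowest. The means were 465 ± 47.5 CPM in Ground and 453 ± 43.6 CPM in Space (SD, n = 3), a fold change of 0.9745 (95% interval 0.836 to 1.14, edgeR adjusted p = 0.9999).

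The levels of Prdx1 and Sod1 kept a fixed ratio across libraries to within counting error. There were 1.71, 1.699 and 1.73 Prdx1 reads per Sod1 read in the Ground libraries 1 to 3, and 1.73, 1.71 and 1.72 in the Space libraries 1 to 3. Prdx1 thus made up 62.9% to 63.4% of the reads of the pair, and the 95% Wilson intervals of the 6 libraries all overlapped (the lowest share, in Ground-2, had an interval of 62.3% to 63.6%, and the highest, in Ground-3, one of 62.9% to 64.0%). These intervals cover counting error only. The coefficient of variation of the ratio over the 6 libraries was 0.834%, where counting error alone gives 1.25%, although Prdx1 itself varied by 9.70% and Sod1 by 9.001%. Of the 45 ratios that can be formed among the 10 enzymes this was the one that varied least relative to counting error. The ratio of Prdx1 to Prdx3 also varied little beyond counting error, by 5.11% where counting error gives 4.61%. By the same measure the ratio of Prdx1 to Prdx5 varied most, by 10.3% where counting error gives 2.18%.

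Among all genes tested, Sod1 was the gene with the highest Pearson's r with Prdx1 (r = 0.998, log2 CPM over 6 libraries), and Prdx1 was the one with the highest r with Sod1. This pair was singled out after its values had been seen. The 6 points share their libraries, some of which resemble each other, and Sesn3, at r = 0.994, ranked only 24 for Prdx1. The next for Prdx1 were Rpl27, Fhl1, Mettl5 and Golph3l and the next for Sod1 were Ndufa8, Rpl8, Rhbdd3 and Rpl27, all at r of 0.996 or above. Rpl27 and Rpl8 encode proteins of the large ribosomal subunit and Ndufa8 a subunit of respiratory complex I.

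Some spermatogonial markers also set Ground-3 and Space-1 apart. The summed level of all the markers was lowest there, at 3000 and 3076 CPM, against 3100 to 3178 CPM in the other libraries. Etv5, a transcription factor induced by GDNF, had 93.0 and 99.1 CPM in Ground-3 and Space-1 and 195 to 262 CPM in the other 4 libraries. Gfra1, which encodes the GDNF co-receptor, had 100.4 and 101 CPM there against 141 to 149 CPM. Nanos2, an RNA-binding protein of undifferentiated spermatogonia, was high in these libraries instead, with 12.1 and 11.4 CPM against 4.78 to 6.39 CPM. Ddx4 and Epcam were also lowest in Ground-3 and Space-1, and Dazl and Sall4 highest. These genes were named after their values were seen, and the part of the state of the cells in the levels of Prdx1 and Sod1 was not tested.

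**Figure D2:**
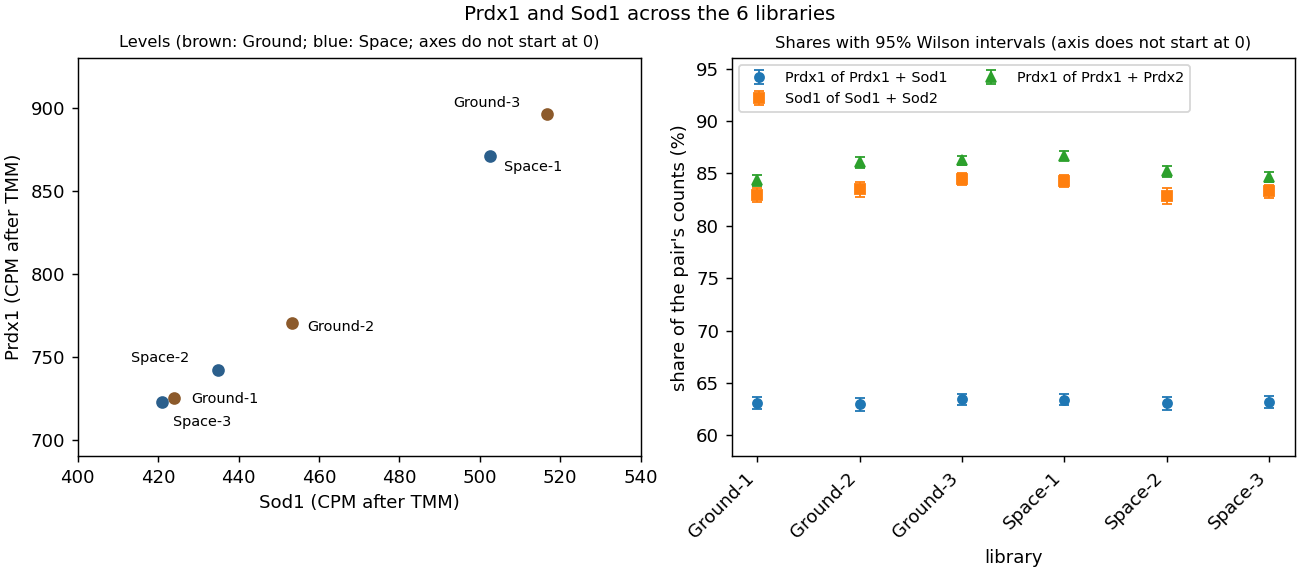
Left, Prdx1 against Sod1 in CPM after TMM for the 6 libraries, with axes that do not start at 0. Right, the share of Prdx1 in the counts of Prdx1 and Sod1, of Sod1 in those of Sod1 and Sod2, and of Prdx1 in those of Prdx1 and Prdx2, with 95% Wilson intervals on an axis that does not start at 0; the first stays between 62.9% and 63.4% in all libraries.

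The sequences before the starts of Prdx1 and Sod1 are shown because the levels of these genes varied together and because, of the 9 enzymes with an entry in the RefSeq promoter table (GRCm38.p6), they were the ones with a match to TGACNNNGC, the core of the antioxidant response element bound by Nrf2 (Nfe2l2). The search covered both strands of the 250 bases before each RefSeq start. A match was held by 2 of the 9 enzymes (22.2%), by 11.5% of all genes with a window and by 10.2% of all windows. Capitals mark the match, which is on the minus strand in both. Only the part of each window upstream of the first annotated start in GENCODE M21 is shown. The Prdx1 sequence is chr4:116685349-116685543, plus strand, and that of Sod1 is chr16:90220512-90220753, plus strand.
Prdx1: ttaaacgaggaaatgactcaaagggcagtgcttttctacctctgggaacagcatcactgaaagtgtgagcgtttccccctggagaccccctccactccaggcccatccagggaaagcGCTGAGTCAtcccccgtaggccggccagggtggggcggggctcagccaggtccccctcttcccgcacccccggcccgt
Sod1: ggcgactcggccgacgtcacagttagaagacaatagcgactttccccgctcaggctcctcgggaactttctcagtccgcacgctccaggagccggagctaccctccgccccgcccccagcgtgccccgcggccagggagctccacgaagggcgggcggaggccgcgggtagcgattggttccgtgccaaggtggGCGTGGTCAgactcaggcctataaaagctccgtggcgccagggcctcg

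The match begins 133 bases before the RefSeq start in Prdx1 and 56 bases before it in Sod1. In Prdx1 it overlaps the letters TGACTCA of an AP-1 site, which this window holds at 2 places and 4.46% of all windows hold. In Sod1 it does not. A match describes letters and no binding was measured. Prdx6 had no entry.

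The other 3 typical 2-Cys peroxiredoxins were lower in level than Prdx1 and less like it in pattern than Sod1 was. Their r with Prdx1 was 0.615 for Prdx2, 0.911 for Prdx3 and 0.918 for Prdx4. Prdx2, the cytosolic form that is abundant in red blood cells, had 135, 125 and 143 CPM in the Ground libraries 1 to 3 and 134, 129 and 131 CPM in the Space libraries 1 to 3. The Space libraries lay inside the range of the Ground libraries. The fold change was 0.978 (95% interval 0.884 to 1.08), with means of 134 ± 8.98 and 131 ± 2.46 CPM (SD, n = 3). Red blood cell genes were close to 0: the 6 erythroid markers had 1 to 8 counts per library in sum, and Hbb-bs, Hbb-bt and Hba-a2 had 0. Prdx2 (ENSMUSG00000005161, chromosome 8, 84969587 to 84974834) overlaps Rnaseh2a and Junb on the opposite strand. Whether reads were counted by strand is not given in the sources used here, so its count is uncertain. Junb had 106 and 108 CPM in Ground-1 and Space-3 and 48.0 to 54.0 CPM in the other 4 libraries, an order that Prdx2 did not follow.

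Prdx3 (ENSMUSG00000024997, chromosome 19, 60864051 to 60874556), the peroxiredoxin of the mitochondrial matrix, varied most. Its level was 18.8, 21.9 and 26.5 CPM in the Ground libraries 1 to 3 and 23.6, 20.7 and 21.2 CPM in the Space libraries 1 to 3. Ground-3 was 1.41-fold above Ground-1, the widest span among the 10 enzymes, and the Space libraries fell between them. With 388 to 605 counts per library Prdx3 also had the largest counting error, 4.50%, against a coefficient of variation of 12.1% over the libraries. Its fold change was 0.974 and its interval the widest, 0.781 to 1.22 (means 22.4 ± 3.90 and 21.8 ± 1.56 CPM, SD, n = 3). The genes whose log2 CPM was most like that of Prdx3 over the 6 libraries were Gm10503, Mrpl50, Supv3l1, Gm12865 and Strap, at r of 0.985 to 0.994. Mrpl50 encodes a protein of the mitochondrial ribosome and Supv3l1 a mitochondrial RNA helicase. For Prdx2 they were Dynlt1f, Uqcc1, Gm38150, Rap2c and 4930563E22Rik, at r of 0.982 to 0.992. These are descriptions over 6 libraries.

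Prdx4 (ENSMUSG00000025289, chromosome X, 155323918 to 155340754), which resides in the endoplasmic reticulum and takes part in oxidative protein folding, had 100.04, 106 and 115 CPM in the Ground libraries 1 to 3 and 108, 105 and 101 CPM in the Space libraries 1 to 3. Ground-3 was again highest and Space-1 next. The fold change was 0.977 (95% interval 0.876 to 1.09, means 107 ± 7.75 and 105 ± 3.62 CPM, SD, n = 3). Prdx4 and Sod2 kept a ratio of 1.15 to 1.22 over the 6 libraries. That ratio varied by 2.25%, where counting error gives 3.05%, and was the next steadiest of the 45 after that of Prdx1 and Sod1.

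Prdx5 and Prdx6 did not share the order of libraries seen for Prdx1. Prdx5 (ENSMUSG00000024953, chromosome 19, 6906697 to 6910106), an atypical 2-Cys form found in mitochondria, peroxisomes and cytosol, had 105, 114 and 109.6 CPM in the Ground libraries 1 to 3 and 105, 111 and 106 CPM in the Space libraries 1 to 3. Ground-2 and Space-2 were its highest libraries, and these had the highest mitochondrially encoded shares, 11.5% and 7.12%. Whether the share had a part in this order was not tested. The fold change of Prdx5 was 0.979 (95% interval 0.893 to 1.07). Prdx5 overlaps Trmt112 on the opposite strand, which had 33.6 to 37.6 CPM, with the same uncertainty as for Prdx2.

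Prdx6 (ENSMUSG00000026701, chromosome 1, 161240112 to 161251219), the 1-Cys form that uses glutathione and also acts on phospholipids, had 70.5, 80.8 and 80.3 CPM in the Ground libraries 1 to 3. In the Space libraries 1 to 3 it had 75.8, 76.9 and 71.2 CPM, all inside the range of Ground. Ground-1 and Space-3 were lowest. The fold change was 0.967 (95% interval 0.860 to 1.09, means 77.2 ± 5.83 and 74.7 ± 3.03 CPM, SD, n = 3). Prdx6b, a near copy of Prdx6, had 0 to 7 counts per library and did not pass the filter. The annotated pseudogenes Prdx2-rs3, Prdx6-ps2 and Gpx4-ps2 were not analysed here, and how reads shared with such copies were counted is not stated.

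Sod2 (ENSMUSG00000006818, chromosome 17, 13006846 to 13040063), the manganese superoxide dismutase of the mitochondrial matrix, had 87.4, 89.6 and 94.96 CPM in the Ground libraries 1 to 3 and 93.7, 90.1 and 84.5 CPM in the Space libraries 1 to 3. Ground-3 and Space-1 were highest, as for Sod1, but the span from the lowest to the highest library was 1.12-fold, against 1.23-fold for Sod1. The reads of Sod1 exceeded those of Sod2 by 4.83 to 5.44 times, and the share of Sod1 in the pair was 82.8% (95% Wilson interval 82.1% to 83.6%) in Space-2 and 84.5% (83.9% to 85.1%) in Ground-3, which do not overlap. The fold change of Sod2 was 0.987 (95% interval 0.891 to 1.09), the smallest change of the 10. Sod1 overlaps Scaf4 on the opposite strand over 650 bases, with the same uncertainty as for Prdx2. This uncertainty extends to the ratios, shares and level per length given for Sod1. Scaf4 had 139 to 155 CPM and its own order of libraries.

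Cat (ENSMUSG00000027187, chromosome 2, 103453849 to 103485160), the peroxisomal catalase, was the steadiest of the 10. It had 105, 101 and 104 CPM in the Ground libraries 1 to 3 and 98.1, 102 and 101 CPM in the Space libraries 1 to 3. The groups overlapped only through Ground-2 and Space-2. The coefficient of variation over 6 libraries was 2.57%, close to the 2.10% of counting error, and 4.88% of the 9510 genes at a mean of 10 CPM or more had a smaller SD of log2 CPM. Cat had the lowest fold change and the smallest unadjusted p of the 10, 0.966 with a 95% interval of 0.889 to 1.05 (means 104 ± 2.11 and 100.2 ± 1.83 CPM, SD, n = 3; edgeR unadjusted p = 0.358, adjusted p = 0.9999). In percent, the interval ran from -11.1% to 4.88%.

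Gpx4 (ENSMUSG00000075706, chromosome 10, 80047166 to 80056439), the selenoprotein that reduces lipid hydroperoxides in membranes and is required in maturing sperm, had 97.5, 100.5 and 104 CPM in the Ground libraries 1 to 3. It had 102, 93.0 and 99.9 CPM in the Space libraries 1 to 3, with Ground-3 and Space-1 highest and Space-2 the lowest of all. The fold change was 0.977 (95% interval 0.888 to 1.07, means 100.6 ± 3.17 and 98.2 ± 4.62 CPM, SD, n = 3).

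Per length, the order of levels among the enzymes depended on the transcript taken. With CPM divided by the length in kilobases of the principal annotated transcript, Sod1 was highest, at 716 ± 64.4 CPM per kb, and Prdx1 next, at 343 ± 33.3 (SD over 6 libraries). With the merged length of all annotated exons Prdx1 was at 259 CPM per kb and Sod1 at 116, because the exons of Sod1 merge to 3970 bases and its principal transcript has 641. Prdx4 and Gpx4 came after them by principal transcript, at 107 ± 5.63 and 104 ± 3.94 CPM per kb, and did not differ beyond their spread. Neither did Prdx5 and Prdx2, at 85.9 ± 2.96 and 82.3 ± 3.79. Cat had 39.0 ± 1.001 and Prdx6 31.8 ± 1.84 CPM per kb. The 2 enzymes of the mitochondrial matrix were lowest, with 15.4 ± 0.663 CPM per kb for Sod2 and 14.96 ± 1.81 for Prdx3, within their spread.

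The median spread of the 10 enzymes between libraries was below that of genes at a mean of 10 CPM or more. Those genes were not matched to the enzymes in level. The median SD of log2 CPM was 0.070 for the enzymes and 0.10 for the 9510 genes at a mean of 10 CPM or more. Prdx3, Prdx1 and Sod1 lay above that median, with 79.8%, 68.6% and 64.9% of those genes below them, and the other 7 lay under it.

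The libraries closest to each other in these enzymes came from different groups, but pairs of different groups were not closer in general. The mean absolute difference in log2 CPM over the 10 enzymes was 0.042 between Ground-1 and Space-3, 0.049 between Ground-2 and Space-2 and 0.072 between Ground-3 and Space-1. Over all 9 pairs of different groups it was 0.042 to 0.175, with a mean of 0.096. It was 0.105 to 0.185 (mean 0.138) among the 3 Ground libraries and 0.059 to 0.113 (mean 0.093) among the 3 Space libraries. Over the genes at a mean of 10 CPM or more, the 3 pairs of different groups named first had the lowest values of all 15 pairs, from 0.060 to 0.078. For the enzymes alone Space-2 and Space-3, at 0.059, were closer than Ground-3 and Space-1. The median chi-square of the counts was 1.55, 2.63 and 2.55 times that of sampling noise in the 3 pairs named first. All other pairs had higher values, up to 10.4. Even the closest pair thus differed by more than repeated sampling of the same library would give. The ratio cannot show whether libraries shared RNA or a culture, because separate preparation also adds spread. A shared origin was not tested.

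Beside the enzymes, 3 lists of partner genes were examined, and 0 of their 31 tested members had an adjusted p under 0.05 or an unadjusted p under 0.05 (edgeR). Of 13 genes around thioredoxin, 12 were tested, and 9 were lower and 3 higher in Space, with a median log2 fold change of -0.035. Txn2, the mitochondrial thioredoxin, had the smallest p (0.289 unadjusted, edgeR) and a log2 fold change of -0.061 (SE 0.054). Its 3 Ground libraries, at 76.2 to 79.9 CPM, all lay above the 3 Space libraries, at 74.1 to 76.2 CPM, although Ground-2 and Space-1 differed by less than this rounding. Srxn1 had a log2 fold change of -0.10 (SE 0.099) and Txn1, the cytosolic thioredoxin that restores Prdx1 and Prdx2, one of -0.17 (SE 0.17).

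Txn1 repeated the pattern of Prdx1 and Sod1 with a wider span. It had 60.3, 63.6 and 87.6 CPM in the Ground libraries 1 to 3 and 74.9, 58.7 and 54.8 CPM in the Space libraries 1 to 3. Txnrd1, the cytosolic thioredoxin reductase, and Sesn3, a sestrin, also had their highest levels in Ground-3 and Space-1, at 265 and 259 CPM for Txnrd1 and 78.2 and 73.2 CPM for Sesn3. Srxn1, Sesn2 and Txnrd2 did not. Sesn2 was lowest in Ground-3, at 47.0 CPM, and highest in Ground-1, at 59.4 CPM.

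**Figure D3:**
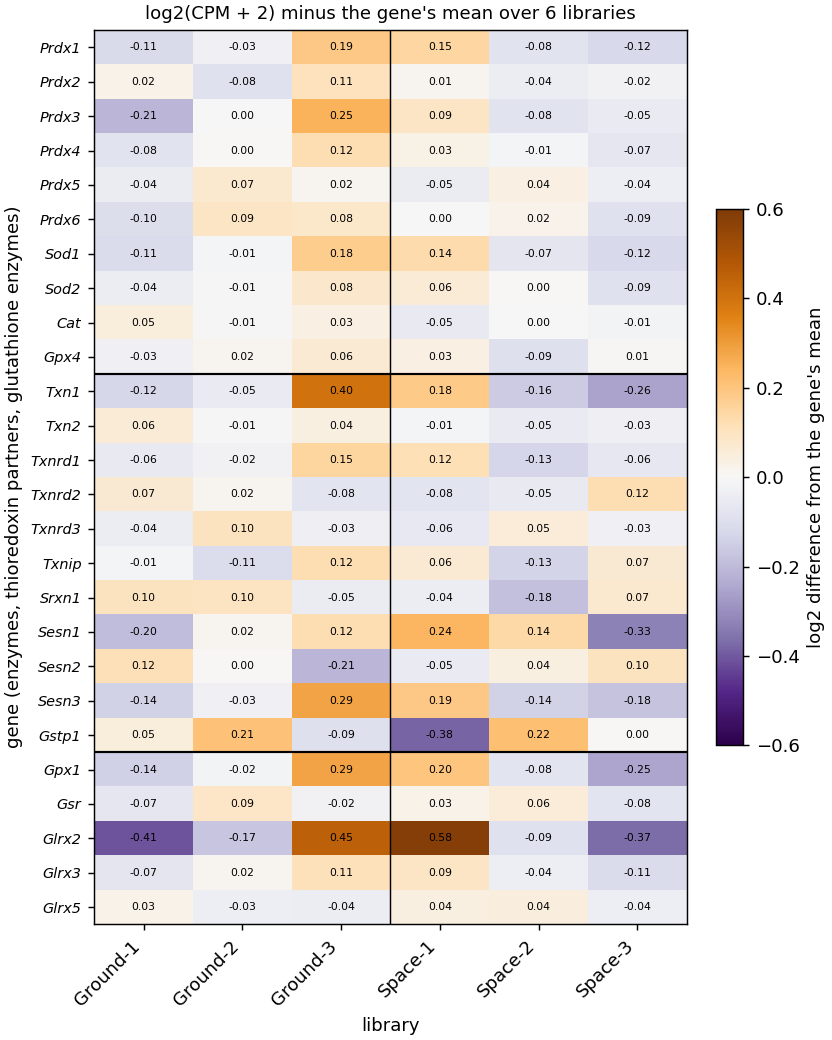
Difference of log2(CPM + 2) from the mean of each gene over 6 libraries, for the 10 enzymes and the 16 thioredoxin and glutathione partner genes with a mean of at least 10 CPM (rows), in the Ground and Space libraries (columns); orange is above and purple below the mean. The genes above their mean in both Ground-3 and Space-1 include Prdx1, Sod1, Txn1, Sesn3, Gpx1 and Glrx2. Cat, Prdx5, Txn2 and Glrx5 stay within 0.071 of their mean everywhere.

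Of 12 other glutathione peroxidases, glutaredoxins and glutathione reductase, 10 were tested, and 5 were lower and 5 higher in Space (median log2 fold change -0.016). The smallest p was that of Gpx8, a peroxidase of the endoplasmic reticulum, with a log2 fold change of 0.14 (SE 0.18). Gpx1, the main cytosolic glutathione peroxidase, had 79.9, 87.4 and 108 CPM in the Ground libraries 1 to 3 and 102, 83.6 and 74.1 CPM in the Space libraries 1 to 3, with a log2 fold change of -0.086 (SE 0.14). Ground-3 and Space-1 were again its highest libraries. Glrx5 had a log2 fold change of 0.033 (SE 0.057). Gsr, the glutathione reductase, had a log2 fold change of 0.00083 (SE 0.065, 95% interval -0.15 to 0.15).

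The last list held oxidases that produce superoxide, with the extracellular dismutase Sod3 and the copper chaperone Ccs. Of its 15 genes 9 were tested, with 5 lower and 4 higher in Space (median log2 fold change -0.015). Cybb, the catalytic subunit of the phagocyte oxidase, had no read in any library, which allows up to 3 counts, or 0.120 to 0.160 CPM. Its membrane partner Cyba had 6.01 to 9.12 CPM, the highest level of an oxidase gene on the list, and Nox4 had 1.10 to 2.93 CPM. Both were lowest in Ground-3 and Space-1. Xdh, Sod3 and Noxa1 had the smallest p, with log2 fold changes of -0.56 (SE 0.35), -0.40 (SE 0.25) and -0.32 (SE 0.50). Sod3 had 1.86 to 2.10 CPM in Ground and 1.19 to 1.76 CPM in Space, with no overlap, on 229 counts in all.

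**Figure D4:**
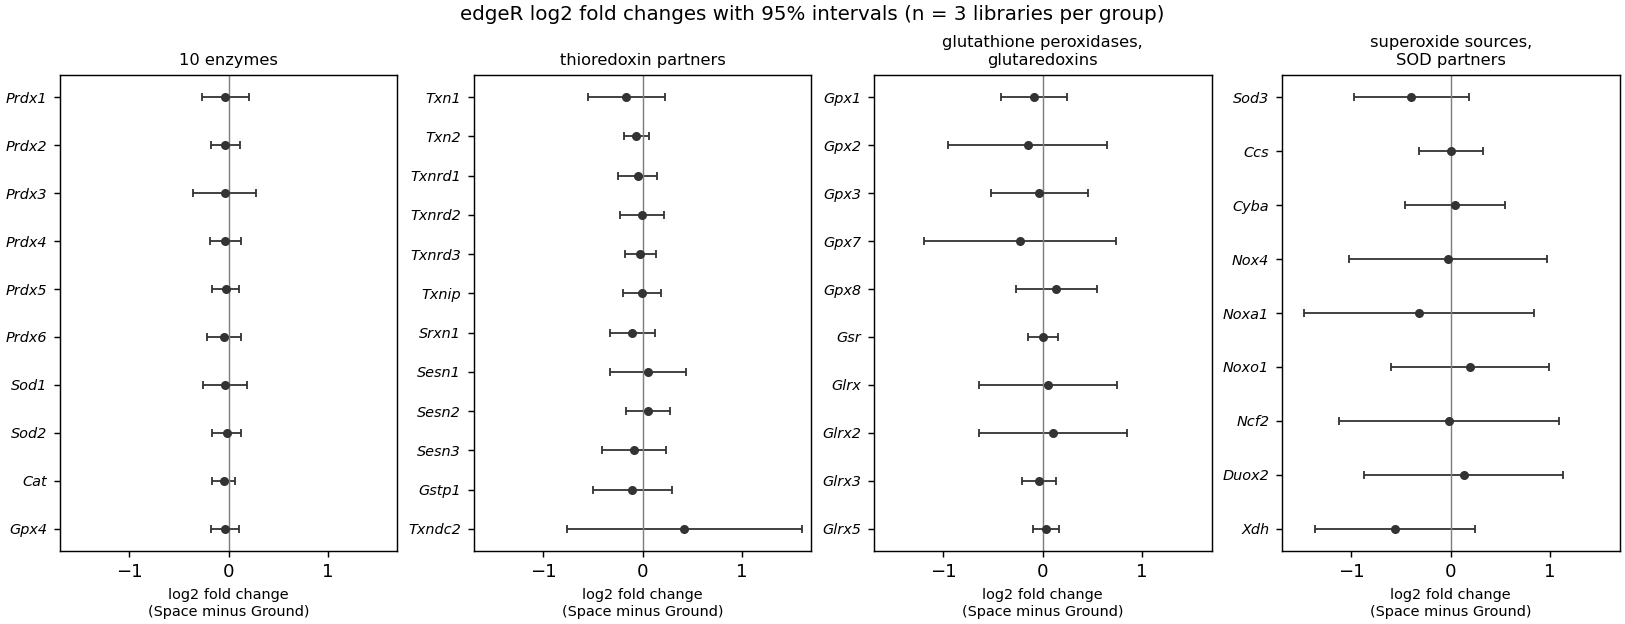
edgeR log2 fold change of Space minus Ground (points) with its 95% interval (bars) for the 10 enzymes and the tested genes of 3 partner lists, n = 3 libraries per group. Every interval includes 0, and the widest among the enzymes is that of Prdx3, from -0.36 to 0.28.

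Of the 20 feeder fibroblast markers 19 had a log2 fold change below 0, where 51.3% of all genes did, with a median of -0.28. None passed the threshold, and 2, Col1a2 and Col3a1, had an unadjusted p under 0.05, where 0.609% of all genes did (edgeR). The 10 enzymes were also below 0, but at a median of only -0.034, and their sign depended on the scaling and on single libraries. With total counts 3 of the 10 were below 0, and without Ground-3 it was 4. The summed level of the feeder markers was lowest in Space-1 (864 CPM), where Prdx1 and Sod1 were high. It was 1038 CPM in Ground-3, where Prdx1 and Sod1 were highest. The part of the feeder markers in the levels of the enzymes was not tested. Among the macrophage markers Adgre1, Csf1r and Lyz2 had 1 to 4 counts in all 6 libraries together, Ptprc had 55 and Cd68 had 2434. Among those of Sertoli and Leydig cells Hsd3b1 had 0 and Cyp11a1 and Insl3 had 8 and 7 counts. Amh and Gata4 had 65 each, whereas Sox9 had 934 and Star 591.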

How the data were processed

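RNA-seq counts of 6 GS cell libraries were used, 3 titled Space and 3 titled Ground. The authors deposited raw counts per gene, not normalised or pooled. Per the methods, adapters were removed with cutadapt before HISAT2 alignment to mm10, with GENCODE M21 as annotation. The submitters' processing notes name HISAT2 2.2.1, cutadapt 4.1 and HTSeq 2.0.2. The strand setting and the handling of shared reads are not given in the sources used here. Labels and methods name different library kits, both stranded.

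Genes were filtered with filterByExpr, scaled by TMM and tested with edgeR 4.0.16 (quasi-likelihood F test, 2-sided, no replicate block, Benjamini-Hochberg adjustment over all genes tested, threshold 0.05) in R 4.3.3. A standard error is the log2 fold change divided by the square root of F, and the 95% interval uses the t distribution of the fit. log2 CPM used a prior count of 2. The procedure was run on simulated counts of independent libraries. Those lack the likeness between libraries of different groups seen here, so that run does not show how the test behaves on these data. Depth limits precision to a counting error of 0.754% for Prdx1 and 4.50% for Prdx3. Positions, lengths and overlaps are from GENCODE M21 (GRCm38).

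Members, lists and alternatives were chosen with earlier results of these data known. All 10 members are named. Of each partner list the 3 genes with the smallest p are named, and the 5 genes closest in pattern to Prdx2 and to the member with the widest range. Other partner genes, the pair of Prdx1 and Sod1 and the motifs were singled out after values were seen. Alternatives were RLE scaling, total counts, mitochondrial genes left out, other filters, DESeq2 1.42.0, limma-voom 3.58.1, a replicate block and leaving out each library.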

Additional observations from a re-analysis of the deposited data

How the results depend on the processing

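The counts of 0 enzymes, 0 partner genes and 0 genes overall past an adjusted p of 0.05 held in all 14 alternatives, which were DESeq2, limma-voom, RLE scaling, scaling to total counts, 2 other filters, the replicate block, the fit without mitochondrial genes and each fit without 1 library (0 to 0). Unadjusted counts over all genes were 45 with DESeq2, 88 with limma-voom, 75 with total counts and 192 with no filter, against 92. They ran from 64 without Ground-2 to 161 without Ground-1. No enzyme had an unadjusted p under 0.05 in any alternative.

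No pairing by replicate number was seen: libraries with the same number had correlations of -0.48, 0.28 and -0.60 between their departures from the mean of their group, and 1 of the 3 Ground libraries correlated best with its own number. Ground-1 correlated best with Space-3 (0.63) and Ground-3 with Space-1 (0.60), a hint from the data and not the design. With the replicate block 0 genes passed, 63 had an unadjusted p under 0.05 and 10 of 10 enzymes were below 0. The block changed no call, but it joins libraries that were mostly unlike. It therefore cannot show what a block by shared culture would give.

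The number of enzymes below 0 was 3 with total counts, where the median of all genes was 0.033, and 4 to 10 in the fits without 1 library. The number whose groups did not overlap was 0 to 2 in those fits, in which 8.28% to 12.7% of all genes did not overlap. Of 140 values of single enzymes under alternatives 123 kept their sign and 17 reversed, none past the threshold. With total counts Prdx1 was 0.0020, Prdx2 0.0017, Prdx3 0.0013, Prdx4 0.0027, Prdx5 0.0063, Sod2 0.015 and Gpx4 0.0024. In the fits without 1 library the values ran from -0.12 to 0.064 for Prdx1, -0.081 to 0.020 for Prdx2, -0.15 to 0.11 for Prdx3, -0.081 to 0.028 for Prdx4, -0.12 to 0.052 for Sod1, -0.055 to 0.021 for Sod2 and -0.061 to 0.0035 for Gpx4. The values above 0 came without Ground-3, and for Prdx1, Sod1 and Sod2 also without Space-3 (0.017, 0.013 and 0.020). That of Gpx4 came without Space-2.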
